A study of Homo sapiens with 4 samples.

Results

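The miR-132 and miR-212 cluster consists of 4 mature miRNAs, hsa-miR-132-3p, hsa-miR-132-5p, hsa-miR-212-3p and hsa-miR-212-5p, chosen by name from the 2656 mature miRNAs in the count table. All 4 passed the filter on low counts and are among the 863 miRNAs tested. They were measured by small RNA-seq in cortical interneurons, inhibitory nerve cells that had been differentiated in culture from H1, a human embryonic stem cell line. In the exposed group, 2 cultures were kept for 7 days in maturation medium with roughly 50 to 100 mM ethanol, and in the unexposed group 2 cultures were kept for 7 days without ethanol. According to the study's methods, the ethanol was removed for a day before collection, and the medium of all cultures held BDNF and cAMP besides ascorbic acid. The treatments were run in duplicate, with no more said on how the cultures were kept apart, and P values measure only the spread between these libraries. The whole design is therefore a single cell line with 2 libraries in each group, and the comparison asks how ethanol exposure relates to miRNA levels in these cells.

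A miRNA hairpin is cut into a short duplex whose strands are named 5p and 3p after their arm. Usually one strand is loaded into an Argonaute protein and guides it to messenger RNAs, mainly through the seed at bases 2 to 8, while the other is degraded. MIR132 and MIR212 are processed from a common primary transcript and are a textbook case of activity-dependent miRNAs in neurons: their transcription is induced by CREB, downstream of BDNF, cAMP and synaptic activity. miR-132-3p is known to promote dendrite growth in neurons.

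The mature sequences are shown first because they set out which miRNAs of the cluster can share targets. Capitals mark the seed, and all sequences are from RefSeq (GRCh38.p14, minus strand of chromosome 17).
miR-132-3p: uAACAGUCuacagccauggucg
miR-212-3p: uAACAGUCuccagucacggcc
miR-132-5p: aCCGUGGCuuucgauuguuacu
miR-212-5p: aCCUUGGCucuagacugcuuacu

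The 3p strands have the same seed, AACAGUC, and are identical over their first 9 bases. They differ at 4 of the 21 positions compared (A10C, C14U, U17C and U20C, with the base of miR-132-3p first and positions counted from 1 at the 5′ end), none of which lies in the seed. Compared base by base without gaps, the 5p strands differ at 8 of 22 positions. One of these, G4U with the base of miR-132-5p first, lies in the seed, so that their seeds are CCGUGGC and CCUUGGC. The strands are 22 and 23 bases long and end in the same bases. The differences from position 18 on therefore depend on allowing no gap. Among the human mature miRNAs with a RefSeq sequence, which covered 2367 of the names in the count table, no others had the seed of either 3p strand, and neither 5p seed was found in any other miRNA.

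The hairpins are shown to place the arms, with both mature strands in capitals and the 5p strand first. MIR132 lies on chromosome 17 from 2049908 to 2050008 and MIR212 from 2050271 to 2050380, 262 bases apart. In GENCODE 29, 0 other genes overlapped the hairpins. The nearest genes were the long noncoding RNA AC090617.5, 4939 bases from MIR132, and the protein-coding HIC1, which lies on the opposite strand at 3773 bases from MIR212.
MIR132 hairpin: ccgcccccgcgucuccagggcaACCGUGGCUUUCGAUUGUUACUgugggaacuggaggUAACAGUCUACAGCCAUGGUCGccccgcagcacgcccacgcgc
MIR212 hairpin: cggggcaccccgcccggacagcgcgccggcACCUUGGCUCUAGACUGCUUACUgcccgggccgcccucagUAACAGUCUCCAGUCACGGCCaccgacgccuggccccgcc

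Library totals were 22223060 and 24858230 counts with ethanol but only 13941795 and 12100425 without it, so that depth and exposure cannot be told apart in this design. No library repeated another, as log2 CPM differed between replicates with an SD across miRNAs of 0.461 with ethanol and 0.691 without. Levels below are in CPM, the count per 1000000 counts of the library, after TMM scaling, which adjusts each library's total so that most miRNAs do not shift between libraries. A read can cover a whole mature miRNA and these strands are 21 to 23 bases long, so counts were not corrected for length. The lengths and ends of the reads were not looked at, so a count need not stand for a whole strand. Ligation and amplification can favour some sequences over others, which was not assessed here. In total RNA of a culture, fewer cells that express a miRNA and less of it per cell cannot be told apart. The label of the cells was checked against fixed marker miRNAs. The neuronal miR-124-3p, miR-9-5p, miR-128-3p and miR-137-3p summed to between 208000 and 286000 TMM-scaled CPM. Most of this was miR-9-5p, with a mean of 190820 CPM over the libraries, and miR-128-3p, with 43760 CPM. miR-124-3p had 3476 CPM and miR-137-3p 75.5 CPM, and the lists held no marker particular to interneurons. The endothelial marker miR-126-3p had 905 CPM and the muscle marker miR-1-3p 270 CPM, below miR-124-3p but above miR-137-3p. The neuronal sum is therefore in the main a level of miR-9-5p and does not settle the label of the cells. The leukocyte and microglia markers miR-142-3p and miR-223-3p had 0 counts in every library, which at 3 counts allows up to 0.248 CPM in the shallowest. The remaining marker of that list, miR-142-5p, had at most 1 count in any library.

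The cluster was well expressed in these cells, and nearly all of it was miR-132-3p. Summed over the 4 miRNAs, exposed libraries held 42634 (0.192% of all counts) and 40017 (0.161%), and unexposed libraries 16930 (0.121%) and 18515 (0.153%). miR-132-3p alone made up between 83.7% and 86.4% of the cluster's counts. The strands of MIR132 together outnumbered those of MIR212 by 11.96-fold to 13.69-fold, a narrow range across the 4 libraries. In read counts, the hairpins were thus represented very unequally although they lie 262 bases apart.

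hsa-miR-132-3p, the guide strand best studied in neurons, was counted 35700 and 34156 times with ethanol, and 14385 and 15999 times without it. After TMM scaling, exposed replicates 1 and 2 stood at 1416 and 1403 CPM, and unexposed replicates 1 and 2 at 1220 and 1243 CPM. On this scale replicates lay close together, and both exposed libraries were above both unexposed libraries. Unscaled, replicates lay further apart, at 1606 and 1374 CPM with ethanol and 1032 and 1322 CPM without it. miR-132-3p ranked between 62 and 65 among the tested miRNAs in every library. In the order of mean levels it stood between miR-98-5p, at 1375 CPM, and miR-328-3p, at 1314 CPM, and its range over the libraries overlapped with that of both.

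hsa-miR-132-5p, the other strand of the same hairpin, was counted 3816 and 3011 times with ethanol and 1239 and 1256 times without it. TMM scaling put exposed cultures at 151 and 124 CPM, unexposed ones at 105 and 97.6 CPM. The exposed libraries were again the higher ones, with exposed replicate 1 clearly above replicate 2. Unscaled, the 95% Wilson intervals of the exposed replicates were 166 to 177 CPM and 117 to 126 CPM, but these also hold the difference in scaling between the libraries. As a share of the reads of both MIR132 strands, which scaling does not change, the intervals were 9.37% to 9.95% and 7.83% to 8.38%. Relative to miR-132-3p, the gap between the exposed replicates thus exceeded counting error. These intervals cover counting error only, because the reads carry no molecular identifiers.

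hsa-miR-212-5p, the 5p strand of the neighbouring hairpin, was counted 2683 and 2582 times with ethanol and 1161 and 1107 times without it. After TMM scaling it was at 106.4 and 106.1 CPM with ethanol, and at 98.4 and 86.0 CPM without. The groups did not overlap, but the unexposed replicates differed from each other by more than the higher of them differed from the exposed cells. miR-132-5p had more counts than miR-212-5p in 4 of 4 libraries, by 1.42-fold, 1.17-fold, 1.07-fold and 1.13-fold, for which an exact two-sided sign-flip test gives 0.125, the smallest p that 4 libraries allow. Across libraries the TMM-scaled ranges of these strands overlapped, so their order rests on the comparison within libraries.

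hsa-miR-212-3p was the rarest strand, although it shares its seed with the most abundant one. It was counted 435 and 268 times with ethanol and 145 and 153 times without it, or 17.25 and 11.01 CPM against 12.29 and 11.89 CPM after TMM scaling. Exposed replicate 1 stood above the other libraries, and exposed replicate 2 was the lowest of all 4, so the groups overlapped. Unscaled, the Wilson intervals of the exposed replicates were 17.8 to 21.5 CPM and 9.57 to 12.2 CPM, further apart than counting error. Of the reads with the shared seed AACAGUC, miR-212-3p made up between 0.779% and 1.204%, so that the summed level of this seed was in effect the level of miR-132-3p. How reads that fit more than 1 miRNA were counted is not given in the sources used here. The last of the 4 differing positions lies near the 3′ end, and the others are internal.

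**Figure D1:**
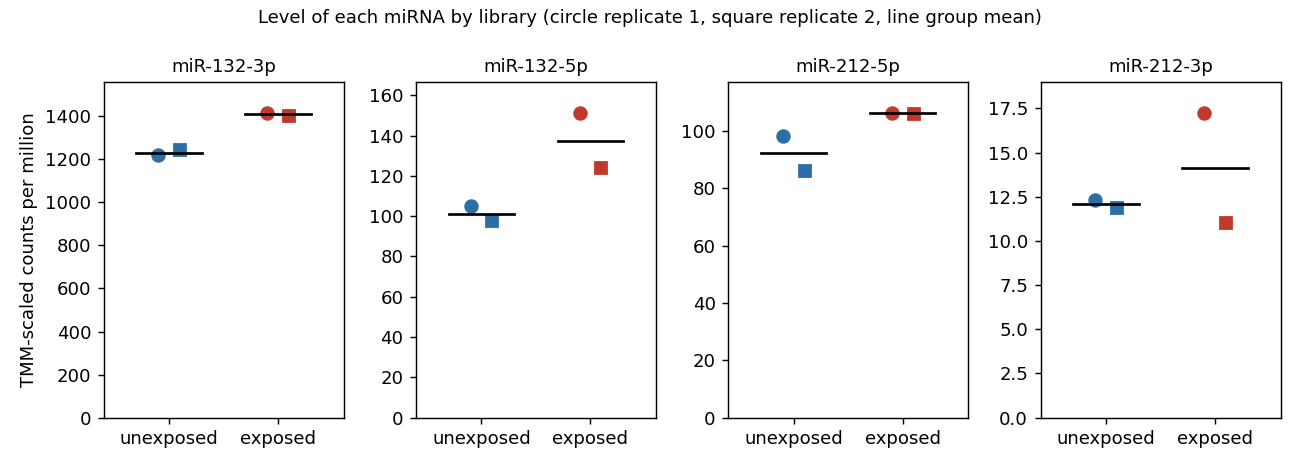
TMM-scaled CPM (vertical axis, from 0, a separate scale for each panel) of the 4 miRNAs in unexposed (blue) and exposed (red) libraries. Circles are replicate 1, squares replicate 2 and black lines group means. The exposed libraries lie above the unexposed ones for miR-132-3p, miR-132-5p and miR-212-5p, and miR-212-3p overlaps, with exposed replicate 1 at 17.25 CPM and replicate 2 at 11.01 CPM.

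None of the 4 miRNAs passed edgeR's quasi-likelihood test between exposed and unexposed cells (0 of 4 with an unadjusted P under 0.05, in edgeR, limma-voom and DESeq2 alike, and 0 with an adjusted p under 0.05). Over all 863 tested miRNAs, 39 had an unadjusted P under 0.05 in edgeR, or 4.52%, and 0 had an adjusted p under 0.05. limma-voom gave 31 and DESeq2 28 by the unadjusted P, and 0 each by the adjusted p. In edgeR the adjusted count became 6 with no filter on low counts, 1 without exposed replicate 1, 5 without exposed replicate 2, 18 without unexposed replicate 1 and 15 without unexposed replicate 2, none of them a member of the cluster. All 4 fold changes were small and above 1. A fold change above 1, of any size, was found for 48.8% of the tested miRNAs. The median log2 fold change of all tested miRNAs was -0.010, and the members come from a common transcript and are not independent of each other.

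miR-132-3p averaged 1409 ± 8.84 CPM with ethanol against 1232 ± 16.9 CPM without it (SD, n = 2 each). The log2 fold change was 0.19 ± 0.20 (SE, the standard error of the fit), a 1.145-fold difference with a 95% interval from 0.826-fold to 1.59-fold. edgeR's unadjusted P was 0.366 and its adjusted p 0.940. After TMM scaling the replicates of each group agreed within 0.028 on the log2 scale, far more closely than the SE. The SE is larger because edgeR estimates the spread largely from other miRNAs of like abundance. An exact permutation test gives 0.3333, the smallest two-sided p that 2 libraries against 2 allow.

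The largest difference among the 4 belonged to miR-132-5p, which averaged 138 ± 19.5 CPM with ethanol against 101 ± 5.25 CPM without it (SD, n = 2 each). On the log2 scale this was 0.44 ± 0.23 (SE), or 1.36-fold with a 95% interval from 0.938-fold to 1.96-fold. edgeR's unadjusted P was 0.0926 and its adjusted p 0.922 (exact permutation 0.3333). An absolute log2 fold change at least as large was found for 23.3% of the tested miRNAs. Without exposed replicate 1 the log2 fold change was 0.29, and without exposed replicate 2 it was 0.58.

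miR-212-5p averaged 106 ± 0.227 CPM with ethanol against 92.2 ± 8.76 CPM without it (SD, n = 2 each), a log2 fold change of 0.20 ± 0.22 (SE). The 95% interval was 0.804-fold to 1.65-fold, and edgeR's P was 0.390 unadjusted and 0.940 adjusted. Leaving out unexposed replicate 2 brought the log2 fold change down to 0.074, and leaving out unexposed replicate 1 raised it to 0.30. miR-212-3p averaged 14.1 ± 4.41 CPM with ethanol against 12.1 ± 0.284 CPM without it (SD, n = 2 each), a log2 fold change of 0.22 ± 0.31 (SE). Its interval was 0.708-fold to 1.93-fold, its unadjusted P in edgeR 0.493 and its adjusted p 0.968, and an exact permutation test gave 1. Here exposed replicate 1 decided the direction, since without it the log2 fold change was -0.14.

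For these cells the study used a fold change limit of 2, and of 1.3 for its network. With edgeR and TMM on all libraries, the 95% interval of 0 of the 4 miRNAs reached a 2-fold difference in either direction, but all 4 intervals held 1.3-fold. The first of these depended on the setting. Of 13 alternatives, the interval reached 2-fold in 2 for miR-132-3p, 6 for miR-132-5p, 4 for miR-212-3p and 3 for miR-212-5p, with the highest limit at 2.73-fold (miR-212-3p without exposed replicate 2). Without exposed replicate 1, or without exposed replicate 2, it did so for all 4. Both exposed libraries were above both unexposed libraries for 3 of the 4, against 18.8% of all tested miRNAs. With upper quartile scaling in place of TMM the groups of miR-212-5p overlapped and the count was 2, against 13.2%.

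**Figure D2:**
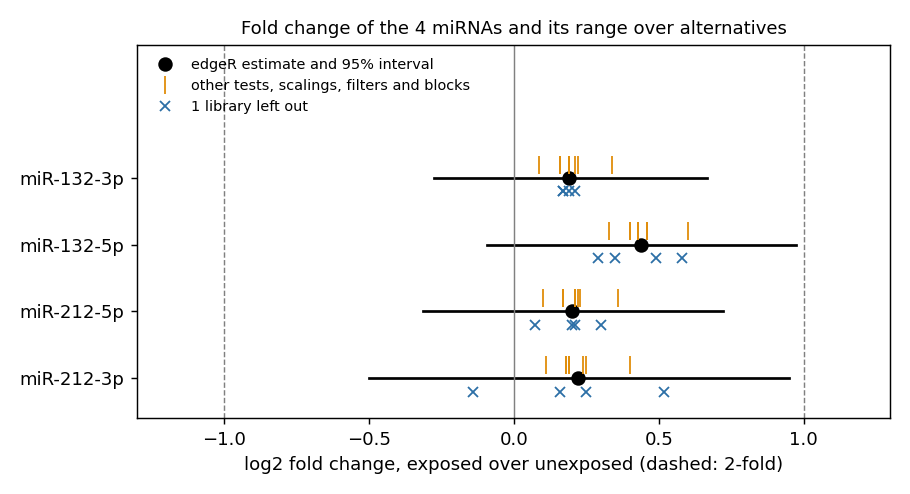
Log2 fold change of exposed over unexposed cells (horizontal axis) for each of the 4 miRNAs. Black points and lines are edgeR's estimate and 95% interval, orange ticks the other tests, scalings, filters and replicate blocks, and blue crosses the fits with 1 library left out. Every interval drawn crosses 0 and ends inside the dashed lines at a 2-fold difference, while intervals of the alternatives, which are not drawn, reached up to 2.73-fold, and the only estimate below 0 is that of miR-212-3p without exposed replicate 1, at -0.14.

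The scaling moved the fold changes of all 4 together. The median log2 fold change of all tested miRNAs was -0.010 with TMM, -0.048 with DESeq2's size factors, 0.14 with library size only and -0.12 with upper quartile scaling. Relative to that median, miR-132-3p was higher by 0.20 to 0.21, miR-132-5p by 0.45 to 0.46, miR-212-3p by 0.23 to 0.25 and miR-212-5p by 0.21 to 0.22 under the 4 scalings.

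In both groups the hairpins used opposite arms. MIR132 gave mainly its 3p strand and MIR212 mainly its 5p strand, in 4 of 4 libraries each. miR-132-3p outnumbered miR-132-5p by 9.36-fold and 11.3-fold with ethanol and by 11.6-fold and 12.7-fold without it. miR-212-5p outnumbered miR-212-3p by 6.17-fold and 9.63-fold with ethanol and by 8.01-fold and 7.24-fold without it. For each hairpin, the exact two-sided sign-flip test of the log2 arm ratio against 0 gives 0.125, the smallest p for 4 libraries. The mean log2 ratio of 5p over 3p counts was -3.48 for MIR132 and 2.93 for MIR212, and the ranges over the libraries were far apart. The arms whose seed is shared between the hairpins, at the 3p side, are therefore the major strand of MIR132 and the minor strand of MIR212. miR-132-3p exceeded miR-212-3p by 82.1-fold and 127-fold with ethanol and by 99.2-fold and 105-fold without it, whereas the 5p strands, which differ in their seeds, were within 1.42-fold of each other.

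**Figure D3:**
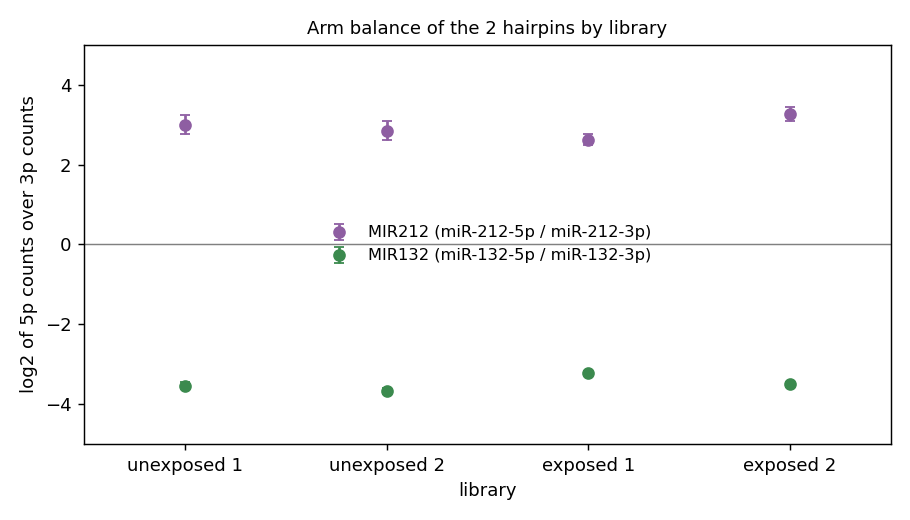
Log2 of 5p counts over 3p counts (vertical axis) in each of the 4 libraries (horizontal axis) for MIR132 (green) and MIR212 (purple), with 95% Wilson intervals for counting error. MIR212 lies above 0 in every library, between 2.62 and 3.27, and MIR132 below 0, between -3.67 and -3.23.

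An arm imbalance of this size was ordinary among the hairpins with both arms tested. Hairpins whose rarer arm did not pass the filter on low counts are left out, so strong imbalances may be underrepresented. Of 159 hairpins with both arms tested and each arm from a single locus, 77 had more 5p counts and 67 more 3p counts in all 4 libraries, and in 15 the major arm differed between libraries. The median absolute log2 arm ratio was 3.20. A ratio at least as far from 0 as that of MIR132 was found for 47.2% of the hairpins, and for 52.8% with MIR212.

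**Figure D4:**
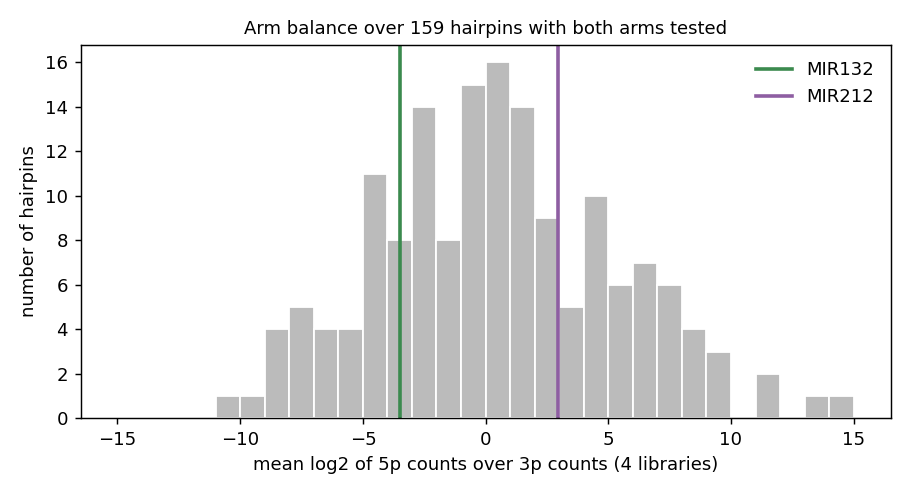
Number of hairpins (vertical axis) by mean log2 of 5p over 3p counts across the 4 libraries (horizontal axis), in bins of 1, for 159 hairpins. Vertical lines mark MIR132 at -3.48 and MIR212 at 2.93, which stand on opposite sides of 0, both well inside the distribution.

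The arm balance within a hairpin does not depend on library size or scaling. The log2 ratio of miR-132-5p over miR-132-3p was -3.23 and -3.50 with ethanol and -3.54 and -3.67 without it, so that the 5p strand had a slightly larger share in the exposed cells without overlap. The difference was 0.24 (exact permutation 0.3333, the smallest possible), or 0.10 without exposed replicate 1 and 0.38 without exposed replicate 2. In the full set 54.1% of the 159 hairpins shifted at least as much in either direction. Groups did not overlap for 29.6% of the hairpins. For MIR212 the log2 ratios were 2.62 and 3.27 with ethanol and 2.997 and 2.851 without it. These overlapped, with a difference of 0.021 (exact permutation 1) that turned to -0.30 without exposed replicate 2 and to -0.052 without unexposed replicate 2.

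Between the hairpins, the log2 ratio of miR-212-5p over miR-132-5p was -0.51 and -0.22 with ethanol and -0.094 and -0.18 without it, a difference of -0.23 (exact permutation 0.3333) without overlap. It was -0.084 without exposed replicate 1 and -0.37 without exposed replicate 2. The log2 ratio of miR-212-3p over miR-132-3p was -6.36 and -6.99 with ethanol and -6.63 and -6.70 without it. Its difference was -0.0086 (exact permutation 1), which became 0.31 without exposed replicate 2 and 0.030 without unexposed replicate 1. The exposed replicates thus differed more from each other in the makeup of the cluster than the unexposed replicates did, for each of the 4 ratios.

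Other miRNAs known to be regulated by, or to act in, neuronal activity and synaptic plasticity were read from a fixed list of 14, all of which were tested. Only miR-124-3p, an abundant neuronal miRNA, had an unadjusted P under 0.05 in edgeR, in the higher direction, and 0 were lower by this test. This 1 of 14 stands beside 39 of 863, or 4.52%, over all tested miRNAs. miR-124-3p averaged 4384 ± 1445 CPM with ethanol against 2569 ± 536 CPM without it (SD, n = 2 each). Its log2 fold change was 0.77 ± 0.30 (SE), with an unadjusted P of 0.0316 and an adjusted p of 0.922 in edgeR. Without exposed replicate 1 it was 0.39, and without exposed replicate 2 it was 1.08. It was 1.00 without unexposed replicate 1 and 0.53 without unexposed replicate 2. Leaving out unexposed replicate 1 gave 0.76 for miR-125b-5p and 0.62 for miR-138-5p. Leaving out unexposed replicate 2 gave 1.43 for miR-485-5p and -0.68 for miR-191-5p. Which of the 14 had an unadjusted P under 0.05 depended on the library left out. Of the 14, 7 had a log2 fold change above 0 and 7 below, with a median of -0.010, beside -0.010 for all tested miRNAs. The list was not sorted by the direction in which activity moves each miRNA, so this split cannot show whether activity signalling changed.

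The list holds miRNAs of the imprinted cluster on chromosome 14 that the transcription factor MEF2 is known to induce with activity. Of these, miR-134-5p, which limits the size of dendritic spines through LIMK1, had a log2 fold change of -0.15 ± 0.34 (SE). It was -0.25 ± 0.23 (SE) for miR-379-5p, 0.010 ± 0.32 (SE) for miR-329-3p and -0.070 ± 0.29 (SE) for miR-381-3p. miR-485-5p, of the same cluster, was higher, at 0.32 ± 0.51 (SE), with only 43 counts in unexposed replicate 1 and 160 in unexposed replicate 2. miR-138-5p, another miRNA of dendritic spines, averaged 60.3 ± 2.32 CPM with ethanol against 50.5 ± 16.1 CPM without it (SD, n = 2 each). The lowest value was that of miR-191-5p, at -0.43 ± 0.26 (SE), without overlap between the groups. For none of the miRNAs named in this paragraph was the unadjusted P in edgeR under 0.05, the lowest being 0.139 for miR-191-5p.

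**Figure D5:**
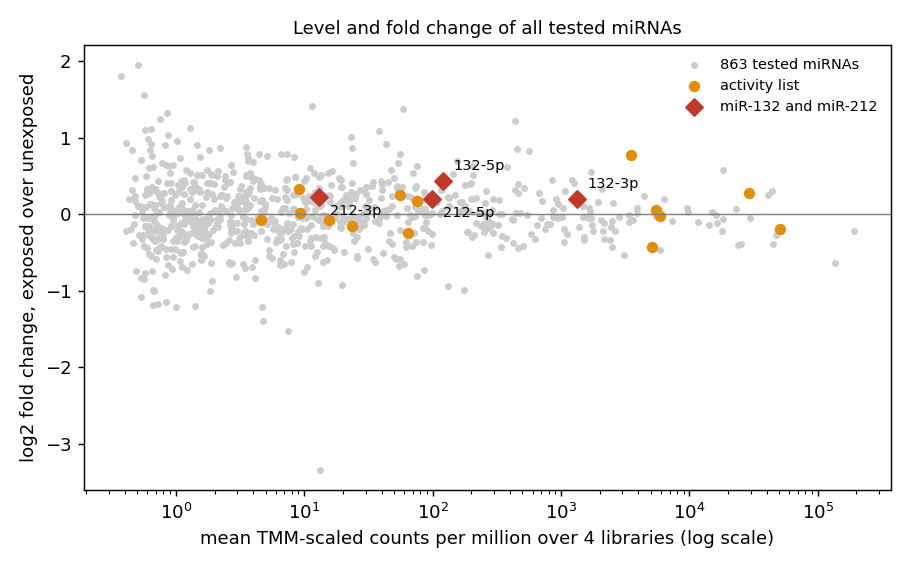
Log2 fold change of exposed over unexposed cells (vertical axis) against the mean TMM-scaled CPM over the 4 libraries (horizontal axis, log scale) for the 863 tested miRNAs in grey. The miR-132 and miR-212 strands (red diamonds) lie between 0.19 and 0.44, within the grey cloud, and the 14 miRNAs of the activity list (orange) lie between -0.43 and 0.77.

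The profiles most like that of miR-132-3p over the 4 libraries were not those of its own cluster. Likeness was the root mean square difference of log2 CPM after each miRNA was centred on its own mean, among 372 other miRNAs with a mean of at least 10 CPM. The 5 closest were miR-338-5p, let-7e-5p, miR-597-3p, miR-1269a and miR-28-5p, at 0.024 to 0.041, where the median of all was 0.237. miR-212-5p came at place 17 (0.079), miR-132-5p at place 102 (0.162) and miR-212-3p at place 173 (0.226). For miR-212-3p the closest were miR-532-3p, miR-99a-5p, miR-3615, miR-197-3p and miR-766-3p, at 0.060 to 0.082, and its cluster partners came at place 42 (miR-132-5p), 86 (miR-132-3p) and 92 (miR-212-5p). With 4 libraries these distances describe the libraries and carry no test.

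Markers of other cell types were read from fixed lists, and their part in the fold changes above was not tested. The endothelial markers miR-126-3p and miR-126-5p, both tested, were the only other-cell list whose summed level was higher in each exposed library, at 927 to 1020 CPM against 807 to 894 CPM. The pluripotency list summed to 2.42 to 2.92 CPM in exposed and 3.48 to 3.89 CPM in unexposed cells, with 2 of its 7 miRNAs tested and miR-367-3p and miR-373-3p at 0 counts in every library. The summed ranges of exposed and unexposed libraries overlapped for the glial, mesenchymal, epithelial, muscle, liver, erythroid and leukocyte lists. Of the miRNAs on these other-cell lists only miR-200a-3p, an epithelial marker, passed, and it was lower with an unadjusted P of 0.0487 in edgeR (adjusted p 0.922).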

How the data were processed

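Small RNA libraries of 4 cultures were analysed. The authors deposited raw read counts per mature miRNA, unnormalized, from NEBNext libraries run through CAP-miRseq. Its version and annotation release are not given in the sources used here, and the submitters' processing notes list hg19. Each count column was matched to its sample by the labels, with 0 repeated names among 2656 rows.

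From the counts, edgeR 4.0.16 in R 4.3.3 was run on the whole table: filterByExpr (minimum count 10, minimum total 15), TMM, the quasi-likelihood test without covariates, and Benjamini-Hochberg adjustment over 863 miRNAs. Standard errors and 95% intervals were derived from the F statistics. Also run were DESeq2 1.42.0, limma-voom (limma 3.58.1), other scalings and filters, a replicate block and leaving out each library. Ratios of counts used 0.5 added to each count and exact two-sided permutation tests (SciPy 1.17.1). On simulated counts with these depths (839 miRNAs tested), edgeR's P was under 0.05 for 74.7% of those changed 2-fold and for 4.01% of those unchanged. Each simulated miRNA took the spread fitted for its level, with none of its own, so these shares may flatter the test. No change smaller than 2-fold was simulated. Named miRNAs are the 4 members, the fixed lists, the neighbours in level and the 5 most similar profiles; members and lists were chosen with earlier results of these data known. Sequences and positions are from RefSeq on GRCh38.p14, matched by name.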

Additional observations from a re-analysis of the deposited data

How the results depend on the processing

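All 4 miRNAs kept their side of the threshold under the 13 alternatives: 0 had an unadjusted P under 0.05 in any of them. Besides leaving out libraries, the log2 fold changes ranged from 0.088 to 0.34 for miR-132-3p, 0.33 to 0.60 for miR-132-5p, 0.11 to 0.40 for miR-212-3p and 0.10 to 0.36 for miR-212-5p, with adjusted p values of at least 0.771. Leaving out each library in turn gave 0.17 to 0.21, 0.29 to 0.58, -0.14 to 0.52 and 0.074 to 0.30, with the lone library assumed to vary like the other group. The differences in log2 arm ratio ranged from -0.30 to 0.34 for MIR212, and from -0.33 to 0.31 for miR-212-3p over miR-132-3p, when libraries were left out.

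Over all tested miRNAs the number with an unadjusted P under 0.05 in edgeR was 39, and it was 94 with no filter on low counts and 12 to 109 with 1 library left out. The count of 1 on the activity list also moved with 1 library left out, as the count over all tested miRNAs did. Same-numbered libraries did not deviate together: the correlation of the differences between replicates 1 and 2 was -0.186 across 863 miRNAs. The replicate block gave 25, and a crossed replicate block that was chosen after seeing the data gave 59. For the 4 miRNAs the replicate block gave log2 fold changes of 0.19 (miR-132-3p), 0.43 (miR-132-5p), 0.19 (miR-212-3p) and 0.21 (miR-212-5p) and changed no call.

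Depth limits miR-212-3p most, at 145 to 435 counts per library, and with 2 libraries per group small differences cannot be told from 0.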
